A study of Mus musculus with 8 samples.

Results

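Imprinted genes are described here in mouse embryos at embryonic day 7.5, in pools that lacked the forkhead transcription factor Foxa2 and in wild-type pools. The genes were taken from a list of 42 with a known expressed parental copy, 20 paternal, 21 maternal and 1 (Gnas) with transcripts of both kinds, in 17 clusters or single loci. Of these, 41 had a probe set (the group of short probes that measures a transcript) on the Affymetrix arrays, among 18367 genes named on either array type, and Zrsr1 had none. On the U74Av2 array 30 members were covered by 41 probe sets, and on the MOE430v2 array 41 members were covered by 109 probe sets.

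Wild-type embryos came from matings of ICR mice. The Foxa2 null embryos were made from Foxa2 null embryonic stem (ES) cells by tetraploid complementation, in which a wild-type tetraploid host supplies the extra-embryonic tissues, visceral endoderm included. The extra-embryonic region was dissected away in both genotypes, and host-derived visceral endoderm was left on the null embryos. The sex of the embryos in each pool was not analysed here. Wild-type pools 1 and 2 held 53 and 50 embryos, and Foxa2 null pools 1 and 2 held 53 and 48. Each of the 4 RNA extracts was put on 1 array of each type, which leaves 2 independent pools of each genotype however many arrays were read. The MOE430v2 labels give ICR as the strain of the mutant arrays too, and the sources used here do not settle the strain of the ES cells. Genotype, ES cell origin and strain cannot be told apart in this design, and in pooled tissue fewer expressing cells cannot be told apart from less RNA per cell. The paper states that null embryos do not displace their visceral endoderm and so appear enriched for its markers. By its account, genuine increases cannot be separated from that enrichment, a limit on every value above wild-type given below.

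Foxa2, the targeted gene, had log2 signals of 7.37 and 8.08 in wild-type and 6.39 and 6.55 in null pools on U74Av2, and 9.62 and 10.17 against 8.96 and 9.06 on MOE430v2. The null pools lay below wild-type on each platform without overlap (log2 ratios -1.25 and -0.88, adjusted p = 0.13 and 0.141 by limma), and which part of the transcript the probes read was not analysed here. The visceral endoderm left on the null embryos came from the wild-type host, and the paper names the anterior visceral endoderm as a site of Foxa2 expression. The part of this tissue in the Foxa2 signal of the null pools was not tested. All listed epiblast and streak markers were above the filter on low signals (7 of 7 on U74Av2 and 10 of 10 on MOE430v2), as were 4 of 8 and 7 of 10 trophoblast markers. By its definition the filter passed 8695 of 12422 and 31526 of 45037 probe sets. Passing it therefore does not show that a tissue was present.

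Imprinted genes are transcribed mainly from the copy inherited from a single parent, because DNA methylation set in the egg or the sperm persists after fertilization at control regions that act on whole clusters of genes. Many of them act on growth of the embryo and placenta, paternally expressed genes such as Igf2 often promoting it and maternally expressed genes such as Cdkn1c, Grb10 and Igf2r often restraining it. Cultured ES cells are known to lose or gain methylation at some of these regions. The arrays do not tell the parental copies apart, so that every value below is the sum over both copies.

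Promoter sequences are shown for Mest, the member with the largest tested difference, and for Slc22a18 and Phlda2, neighbours in the Kcnq1 cluster. Each is the 250 bases before a RefSeq transcription start (GRCm38.p6), written 5′ to 3′ on the strand of the gene, with every CpG, the dinucleotide that carries DNA methylation, in capitals. Mest start 1 lies at chr6:30733256-30733505 and Mest start 2 at chr6:30737800-30738049, both on the plus strand. Slc22a18 lies at chr7:143473539-143473788 on the plus strand and Phlda2 at chr7:143502525-143502774 on the minus strand.
Mest start 1: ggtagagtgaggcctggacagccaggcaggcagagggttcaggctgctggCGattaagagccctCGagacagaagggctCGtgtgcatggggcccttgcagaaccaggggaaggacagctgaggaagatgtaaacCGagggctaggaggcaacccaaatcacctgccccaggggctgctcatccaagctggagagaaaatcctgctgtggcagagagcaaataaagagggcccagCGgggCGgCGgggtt
Mest start 2: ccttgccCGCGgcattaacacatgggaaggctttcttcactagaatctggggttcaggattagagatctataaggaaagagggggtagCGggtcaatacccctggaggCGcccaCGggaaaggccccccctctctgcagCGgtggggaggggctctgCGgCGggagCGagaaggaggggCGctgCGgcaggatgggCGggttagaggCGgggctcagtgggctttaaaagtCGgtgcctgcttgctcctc
Slc22a18: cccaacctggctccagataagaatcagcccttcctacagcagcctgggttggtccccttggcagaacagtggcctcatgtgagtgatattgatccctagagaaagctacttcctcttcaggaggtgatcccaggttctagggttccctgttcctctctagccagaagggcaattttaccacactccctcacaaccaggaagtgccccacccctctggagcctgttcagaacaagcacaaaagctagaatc
Phlda2: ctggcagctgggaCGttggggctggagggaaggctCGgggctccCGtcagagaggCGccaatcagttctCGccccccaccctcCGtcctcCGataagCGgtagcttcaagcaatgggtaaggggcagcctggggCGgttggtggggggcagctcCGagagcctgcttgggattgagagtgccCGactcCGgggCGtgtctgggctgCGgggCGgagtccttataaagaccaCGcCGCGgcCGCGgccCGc

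The stretch before Mest start 2 held 14 CpGs and that before start 1 held 7. Slc22a18 had 0 and Phlda2 had 21. The 6-base motif TGCCGC, which the imprint-protecting zinc finger protein Zfp57 binds when it is methylated, was searched on both strands and was found 2 times before Mest start 2, and in none of the other 3 stretches. Of the 42 members, 35 had promoter windows of 300 bases in the table, 54 windows in all. Their median was 13.5 CpGs, against 7 over all 32851 windows, and 24.1% of them held the motif, against 11.6% of all windows. Methylation was not measured, and which start the arrays read was not analysed here.

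An intron of Mest also holds miR-335, whose hairpin gives both mature microRNAs shown here because they share the host's promoter, with bases 2 to 8 (the seed) in capitals. They lie at chr6:30741314-30741336 and chr6:30741354-30741375 on the plus strand of GRCm38.p6 and were not measured by these arrays.
mmu-miR-335-5p: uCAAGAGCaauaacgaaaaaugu
mmu-miR-335-3p: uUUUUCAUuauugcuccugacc

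Mest, also called mesoderm-specific transcript, encodes an enzyme of the alpha/beta hydrolase fold family and is expressed from the paternal copy. On MOE430v2 its MAS5 signal (Affymetrix's linear summary of a probe set) was 8410 in wild-type pool 1 and 7810 in wild-type pool 2, and it was 1734 and 1508 in the Foxa2 null pools. On U74Av2 it was 752.1 and 601.1 against 118.5 and 119.1. Both null pools lay far below both wild-type pools on each platform. On the log2 scale, null minus wild-type came to -2.50 on U74Av2 (standard error of the fit, SE, 0.18, adjusted p = 0.00137) and to -2.33 on MOE430v2 (SE 0.12, adjusted p = 0.000284), both from limma, adjusted by Benjamini-Hochberg over all probe sets tested. Log2 ratios below are of this kind. With the log2 values of both platforms averaged per extract, Mest stood at 18.8% of wild-type (log2 ratio -2.41, SE 0.12, adjusted p = 1.64e-05 by limma). By size of decrease Mest ranked 4 of 6424 genes tested on U74Av2, 17 of 14208 on MOE430v2 and 3 of 5947 in the average. The call was lost on each platform, though not in the average, when limma was fitted without its intensity trend (adjusted p = 0.12 and 0.449).

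Among the genes measured beside it, Copg2, a coatomer subunit gene next to Mest on the opposite strand, had log2 signals of 9.82 and 9.93 in wild-type and 9.68 and 9.88 in Foxa2 null pools on MOE430v2, which overlapped (log2 ratio -0.10, SE 0.16). Klf14, a maternally expressed transcription factor gene of the same locus, stood at 0.74 (SE 0.30, adjusted p = 0.376). Heart mesoderm markers had median log2 ratios of -0.85 on U74Av2 (6 of 7 tested below 0) and -0.71 on MOE430v2 (6 of 10 below 0). Their summed signal was 863.7 and 766.1 in wild-type and 403.8 and 440.8 in Foxa2 null pools on U74Av2 (9 genes), and 4476 and 3997 against 3287 and 2793 on MOE430v2 (11 genes). Of these markers, Actc1 (log2 ratio -1.20, adjusted p = 0.0112) and Myl7 (-0.95, adjusted p = 0.0172), which encode a cardiac actin and a myosin light chain, passed limma's threshold in the average of both platforms. No marker of the list was listed at 0. Among epiblast and streak markers, T not included, 5 of 7 on U74Av2 and 6 of 10 on MOE430v2 had log2 ratios above 0, and 0 passed limma's threshold on either platform (0 lower and 2 higher at an unadjusted p under 0.05 on U74Av2, and 1 and 3 on MOE430v2). Both null pools lay above both wild-type pools for Nanog (0.79 and 0.85) and Utf1 (0.51 and 1.06) on each platform and for Fgf5 (0.67) on MOE430v2, and below for Sox2 (-0.40 and -0.37), while those of Pou5f1 overlapped. The adjusted p of Nanog, Utf1, Fgf5 and Sox2 on MOE430v2 were 0.231, 0.197, 0.387 and 0.299. The summed signal of these markers was 3016 and 3277 in wild-type and 2797 and 3969 in null pools on U74Av2 (7 genes), and 26020 and 32751 against 26983 and 34654 on MOE430v2 (10 genes). The part of either marker list in the Mest difference was not tested.

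**Figure D1:**
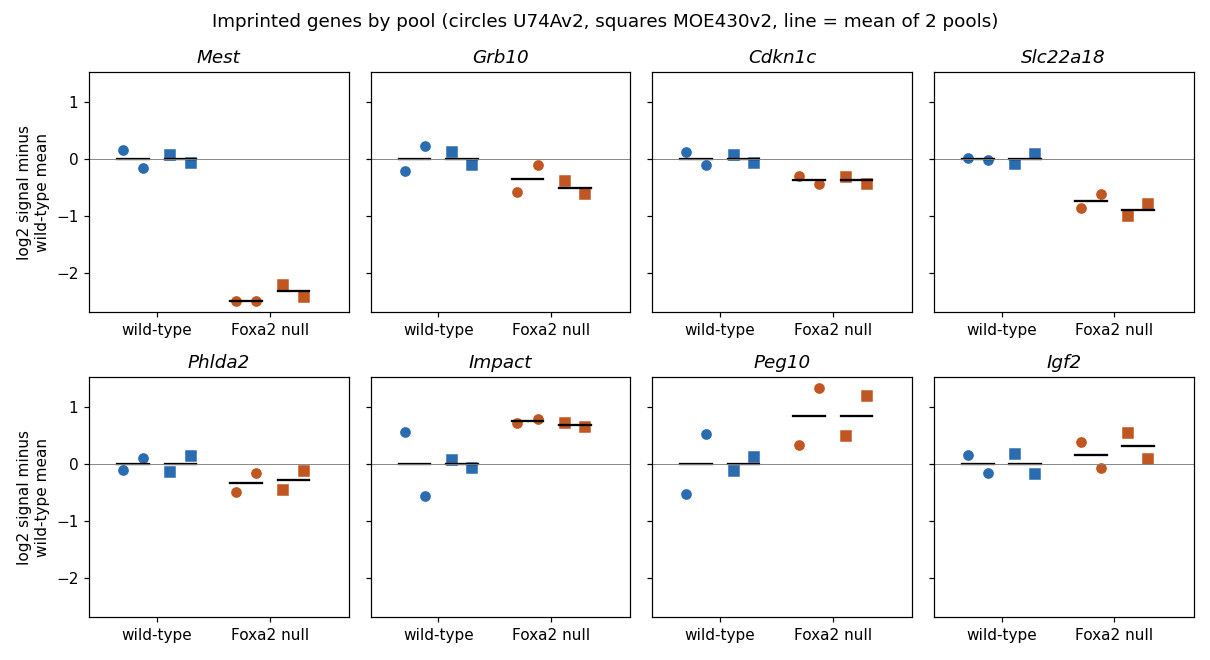
Log2 signal of 8 imprinted genes in each pool, minus the wild-type mean of the platform, at the probe set with the highest mean signal (circles U74Av2, squares MOE430v2, blue wild-type, orange Foxa2 null, line the mean of 2 pools). The Foxa2 null pools of Mest lie more than 2 log2 units below wild-type on both platforms, and no other of the 8 genes lies as far from its wild-type mean.

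Mest was the single member called at the probe set that stands for its gene, namely the gene's brightest over the 4 arrays. On U74Av2, 1 of 33 tested member probe sets was lower at an adjusted p under 0.05, where 0.173% of all probe sets tested were, and 0 were higher, against 0.104%. On MOE430v2, 2 of 86 were lower, against 0.244%, and 0 were higher, against 0.19%. At an unadjusted p under 0.05, 5 were lower and 0 higher on U74Av2 and 12 were lower and 4 higher on MOE430v2, where the shares of all probe sets were 5.01% in each direction and 6.07% and 6.03%. In the average of both platforms 1 of 24 members was lower (background 1.06%) and 0 were higher (background 1.36%), with 7 and 2 at an unadjusted p under 0.05 by limma (background 7.85% and 7.38%).

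The other called probe set belonged to Ndn, a paternally expressed MAGE-family gene of the Prader-Willi region (chromosome 7). This MOE430v2 probe set, singled out after its values were seen, had log2 signals of 10.72 and 10.57 in wild-type and 9.74 and 9.48 in Foxa2 null pools. Its log2 ratio was -1.04, with SE 0.16 and adjusted p = 0.032 from limma after Benjamini-Hochberg adjustment. The groups did not overlap there, but the other 7 Ndn probe sets of the platform had log2 ratios from -0.34 to 0.48, 4 of them below 0 and 3 above. The Ndn probe set with the highest signal had log2 signals of 10.92 and 11.00 in wild-type and 10.64 and 10.95 in null pools, a log2 ratio of -0.16. On U74Av2 both Ndn probe sets had overlapping pools, with log2 ratios of 0.03 and -0.08. The call therefore holds for a single probe set and not for the gene, and it was lost with wild-type pool 1 (adjusted p = 0.138), wild-type pool 2 (0.129) or Foxa2 null pool 2 (0.057) left out, all by limma.

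**Figure D2:**
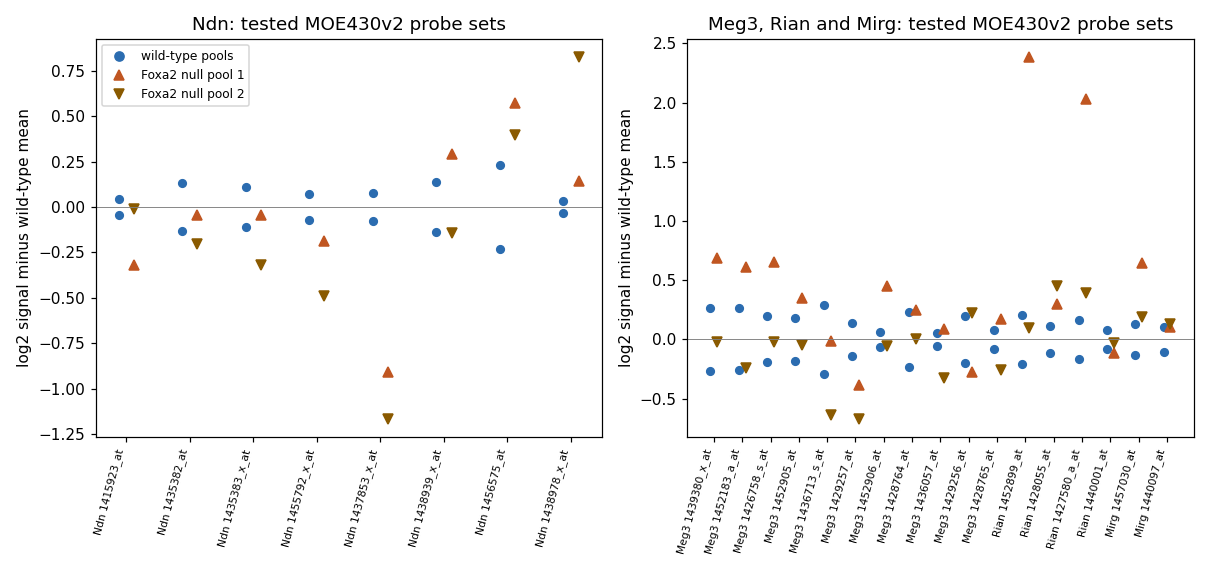
Log2 signal minus the wild-type mean at each tested MOE430v2 probe set of Ndn (left) and of the noncoding RNA genes Meg3, Rian and Mirg (right), with wild-type pools as circles and Foxa2 null pools 1 and 2 as triangles. Of the 8 Ndn probe sets, 1 lies near -1, and Foxa2 null pool 1 stands high at 2 Rian probe sets.

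Grouped by the expressed parental copy, maternally expressed members had a median log2 ratio of -0.29 on U74Av2 (14 tested) and -0.13 on MOE430v2 (17 tested). Paternally expressed members had 0.03 (12 tested) and 0.05 (17 tested), and all genes tested had -0.01 and -0.02. Both null pools lay below both wild-type pools for 7 of the 14 maternal members on U74Av2, where 21.1% of all genes did, and above for 1, where 19.2% did. On MOE430v2 they lay below for 8 of 17 (background 23.7%) and above for 1 (background 21.7%). In the average of both platforms they lay below for 9 of all 24 members, where 23.5% of genes did, and above for 3, where 22.1% did, and for maternal members these counts were 7 and 0 of 11. Genes of the Kcnq1 cluster made up 6 of the 7 lower maternal members on U74Av2, where 8 of them were tested. They made up 5 of the 7 in the average, so that the U74Av2 and averaged counts rest largely on a single cluster. On MOE430v2 they made up 3 of the 8. For paternal members the counts were 1 below and 2 above of 12 on U74Av2, and 4 below and 6 above of 17 on MOE430v2. Without Mest, H19 and Igf2 the maternal medians were -0.25 and -0.12. Many maternally expressed members were marked in the list as imprinted in some tissues only, and 8 of the 21 were not. Igf2r and Grb10 carried this mark and Ascl2 did not, and the marking was not checked here. The maternal medians over those alone were -0.35 (6 tested) and -0.29 (7 tested), while the paternal median on MOE430v2 moved to 0.16. With 1 pool left out the maternal median on U74Av2 was nearest 0 without Foxa2 null pool 2 (-0.17). The paternal median fell below 0 without Foxa2 null pool 1 (-0.083 on U74Av2 and -0.01 on MOE430v2) and, on MOE430v2, without wild-type pool 2 (-0.11). These medians describe a list chosen with earlier results known and were not tested.

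**Figure D3:**
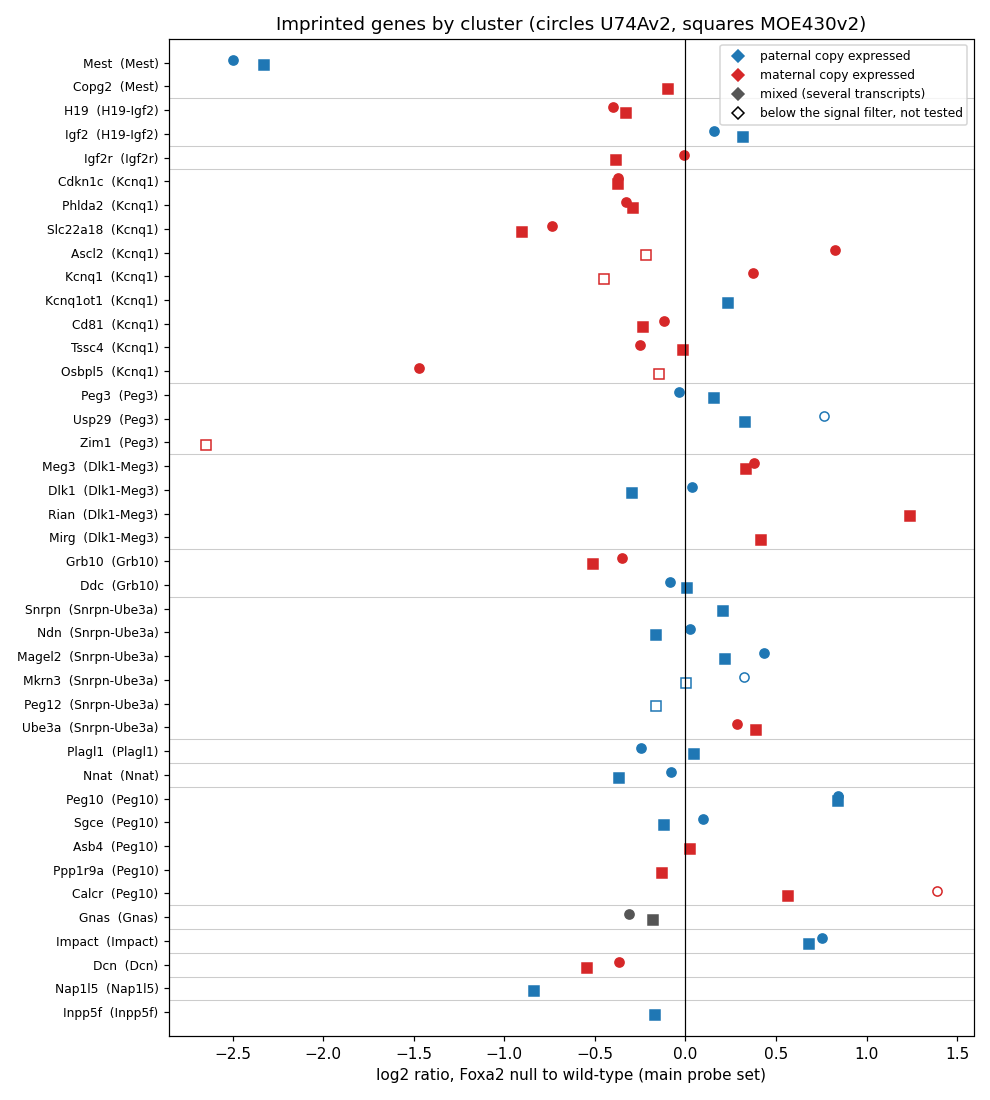
Log2 ratio (Foxa2 null over wild-type) for each of the 41 members with a probe set, by imprinted cluster (name in parentheses), at the probe set with the highest mean signal on U74Av2 (circles) and MOE430v2 (squares), coloured by the expressed parental copy. Open symbols lie below the signal filter and were not tested. Among tested members Mest stands farthest left on both platforms, and Zim1, not tested, lies at -2.65 on MOE430v2.

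The Kcnq1 cluster on chromosome 7 held 9 members, of which Kcnq1ot1, the antisense noncoding RNA that silences the cluster in cis, is paternally expressed and the rest maternally. Slc22a18, which resembles organic cation transporters, had log2 signals of 6.62 and 6.60 in wild-type and 5.75 and 5.99 in Foxa2 null pools on U74Av2, and 7.56 and 7.73 against 6.64 and 6.85 on MOE430v2. Its null pools lay below its wild-type pools on both platforms, at 56.7% of wild-type in the average (log2 ratio -0.82, SE 0.24, adjusted p = 0.118 by limma). Its weaker MOE430v2 probe set had -0.37 (SE 0.64).

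Cdkn1c, the cyclin-dependent kinase inhibitor p57, had log2 signals of 9.62 and 9.40 in wild-type and 9.21 and 9.06 in null pools on U74Av2. On MOE430v2 these were 11.28 and 11.13 against 10.89 and 10.77. Pools did not overlap on either platform and the average stood at 77.1% of wild-type (log2 ratio -0.37, SE 0.12, adjusted p = 0.149 by limma). Phlda2, a pleckstrin homology domain protein that restrains placental growth, had an average log2 ratio of -0.31 (SE 0.13, adjusted p = 0.293). The tetraspanin gene Cd81 had 8.58 and 8.66 in wild-type and 8.53 and 8.47 in null pools on U74Av2, and 11.66 and 11.73 against 11.38 and 11.54 on MOE430v2. Its pools did not overlap either, with an average log2 ratio of -0.17 (SE 0.11). Tssc4 had -0.13 (SE 0.13). On MOE430v2 alone the pools of Phlda2 and of Tssc4 overlapped. These 5 were the genes of the cluster above the filter on both platforms. All 5 had both null pools below both wild-type pools in the average, where 23.5% of all genes did, and 0 of the 5 passed limma's threshold (3 at an unadjusted p under 0.05, against 7.85% of all genes). Without Foxa2 null pool 2 the average of Phlda2 was called (-0.48, adjusted p = 0.0243 by limma).

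Osbpl5, an oxysterol-binding protein relative whose null pools also lay below wild-type on each platform, had log2 signals of 6.04 and 6.50 in wild-type and 4.87 and 4.72 in null pools on U74Av2 (log2 ratio -1.47, SE 0.30, adjusted p = 0.13 by limma). On MOE430v2 its signals of 4.09 and 4.32 against 4.08 and 4.04 were below the filter and not tested. The rest of the cluster gave no such order. On U74Av2 Ascl2, a transcription factor of the trophoblast, had a log2 ratio of 0.82 (SE 0.54). The potassium channel gene Kcnq1 had 5.69 and 6.11 in wild-type and 6.15 and 6.40 in null pools there. Its null pools thus lay above wild-type without overlap (log2 ratio 0.38, SE 0.26). On MOE430v2 both Ascl2 and Kcnq1 lay below the filter. Kcnq1ot1 had log2 signals of 10.60 and 9.70 in wild-type and 10.62 and 10.14 in null pools on MOE430v2, a log2 ratio of 0.23 (SE 0.28) with overlapping pools, and its other 3 tested probe sets ranged from -0.29 to 0.27.

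In the H19-Igf2 domain, H19, a maternally expressed noncoding RNA, had log2 signals of 14.36 and 14.17 in wild-type and 14.15 and 13.72 in Foxa2 null pools on MOE430v2 (log2 ratio -0.33, SE 0.13, adjusted p = 0.374). The paternally expressed growth factor gene Igf2 had 13.11 and 12.74 against 13.47 and 13.02 there (log2 ratio 0.32, SE 0.16, adjusted p = 0.475). On U74Av2 the ratios were -0.40 for H19 and 0.16 for Igf2, with overlapping pools. Igf2r, the receptor that clears IGF2, had -0.01 on U74Av2 and -0.39 on MOE430v2 (SE 0.16, adjusted p = 0.393). All of these missed limma's threshold. With 1 pool left out H19 ranged from -0.72 to -0.09 on U74Av2 and from -0.55 to -0.11 on MOE430v2. In the average it was called without Foxa2 null pool 1 (-0.63, adjusted p = 0.000798 by limma) and came to -0.10 without Foxa2 null pool 2, while Igf2 was called without Foxa2 null pool 2 (0.47, adjusted p = 0.0297) and came to 0.008 without Foxa2 null pool 1.

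Grb10, an adaptor that restrains insulin receptor signalling, had log2 signals of 13.71 and 13.48 in wild-type and 13.20 and 12.97 in Foxa2 null pools on MOE430v2. The groups did not overlap there (log2 ratio -0.51, SE 0.11, adjusted p = 0.098), while on U74Av2 signals of 7.13 and 7.57 against 6.77 and 7.24 did (log2 ratio -0.35). All 6 Grb10 probe sets, 1 of them not tested, had log2 ratios below 0, from -0.72 to -0.22. In the average it stood at 74.1% of wild-type (adjusted p = 0.0835 by limma), and at adjusted p = 0.0496 where the lowest 50% rather than 30% of probe sets were left out. Ddc, dopa decarboxylase, its paternally expressed neighbour on chromosome 11, had -0.08 and 0.01.

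Impact, a paternally expressed regulator of the translation kinase GCN2, was the member closest to the threshold among those above wild-type. Its log2 signals on MOE430v2 were 9.92 and 9.78 in wild-type and 10.56 and 10.49 in Foxa2 null pools (log2 ratio 0.68, SE 0.14, adjusted p = 0.0891 by limma). On U74Av2 they were 4.93 and 3.80 against 5.08 and 5.15, where the wild-type pools lay 1.14 apart. These U74Av2 signals were weak, each below the median signal of its array (MAS5 30.6 and 13.9 in wild-type and 33.9 and 35.6 in null pools). The pools did not overlap on either platform. Its other MOE430v2 probe sets had 0.16 and 0.98 with overlapping pools. Peg10, a retrotransposon-derived gene needed in the placenta, had log2 ratios of 0.84 on both platforms (SEs 0.40 and 0.35), and its U74Av2 pools overlapped. With 1 pool left out these ranged from 0.32 to 1.36 on U74Av2 and from 0.49 to 1.19 on MOE430v2, and the average was called without Foxa2 null pool 1 (1.26, adjusted p = 0.00496 by limma). Magel2 had 6.26 and 5.68 in wild-type and 6.46 and 6.35 in null pools on U74Av2, and 9.25 and 9.19 against 9.38 and 9.50 on MOE430v2, with an average log2 ratio of 0.33 (SE 0.18, adjusted p = 0.432). Snrpn, whose product takes part in splicing, was read on MOE430v2 alone, at 13.09 and 13.11 in wild-type and 13.17 and 13.45 in null pools (log2 ratio 0.21, SE 0.10, adjusted p = 0.477).

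Gnas, which encodes the stimulatory G protein alpha subunit, had log2 signals of 12.12 and 12.08 in wild-type and 11.89 and 11.68 in null pools on U74Av2. On MOE430v2 they were 13.57 and 13.60 against 13.39 and 13.42. Pools did not overlap, and the average log2 ratio was -0.25 (SE 0.09, adjusted p = 0.19 by limma), with ratios from -0.61 to 1.20 at its other tested probe sets. Decorin (Dcn) had weak signals, 4.49 and 4.45 in wild-type and 4.16 and 4.04 in null pools on U74Av2 and 6.56 and 6.93 against 5.96 and 6.44 on MOE430v2, and an average log2 ratio of -0.45 (SE 0.41).

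Members on MOE430v2 alone whose null pools lay below wild-type were Zim1, Nap1l5, Ppp1r9a and Inpp5f. Zim1, a maternally expressed zinc finger gene of the Peg3 cluster, had MAS5 signals of 100.2 and 104.3 in wild-type and 15.5 and 16.4 in Foxa2 null pools, with no overlap. Its mean fell below the filter on low signals, and without that filter its log2 ratio of -2.65 had a SE of 0.72 and an adjusted p of 0.287 by limma. Nap1l5, a nucleosome assembly protein relative, had log2 signals of 6.96 and 7.38 in wild-type and 6.83 and 5.84 in null pools (-0.84, SE 0.51). Ppp1r9a, which encodes neurabin, had 9.73 and 9.60 against 9.56 and 9.50 (-0.13), and the inositol phosphatase gene Inpp5f had 9.86 and 9.99 against 9.75 and 9.77 (-0.17), with SEs of 0.16 and 0.15.

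The Dlk1-Meg3 cluster on chromosome 12 differed between the Foxa2 null pools. Rian, a maternally expressed noncoding RNA that hosts small nucleolar RNAs, had log2 signals of 9.06 and 9.48 in wild-type pools, 11.66 in Foxa2 null pool 1 and 9.37 in Foxa2 null pool 2 at its brightest probe set. At another probe set these were 8.91, 8.58, 10.78 and 9.14 in the same order. Foxa2 null pool 1 was the highest pool at both. The other null pool lay between the wild-type pools at the first. It lay above both at the second (log2 ratio 1.21, SE 0.43, adjusted p = 0.31 by limma). The log2 ratio of 1.24 at the first (SE 0.57, adjusted p = 0.431 by limma) became 0.10 with Foxa2 null pool 1 left out. It came to 2.39 when the other null pool was dropped instead. At a further Rian probe set (log2 ratio 0.37) both null pools lay above wild-type, at 9.54 and 9.68 against 9.35 and 9.12. The last Rian probe set had -0.07 with overlapping pools. Mirg, a microRNA-bearing transcript of the cluster, had 10.45 and 10.71 in wild-type and 11.23 and 10.78 in null pools (log2 ratio 0.42, SE 0.17, adjusted p = 0.381).

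Meg3, the maternally expressed noncoding RNA at the head of these transcripts, had 12.98 and 12.45 in wild-type and 13.40 and 12.70 in null pools at its strongest MOE430v2 probe set (log2 ratio 0.33, SE 0.23), and its 11 probe sets ranged from -0.53 to 0.33. Its average over the platforms was called without Foxa2 null pool 2 (0.76, adjusted p = 0.00149 by limma) and came to -0.049 without Foxa2 null pool 1. Foxa2 null pool 1 was the highest of the 4 pools at 11 of the 17 tested MOE430v2 probe sets of Meg3, Rian and Mirg (64.7%), against 25.1% of all probe sets. Meg3 alone supplied 11 of the 17, all read in the same 4 extracts, so that they are not independent observations. At its strongest probe set wild-type pool 1 also lay above wild-type pool 2. Dlk1, the paternally expressed Notch ligand relative of the cluster, had 11.98, 11.75, 11.91 and 11.23 in the same order, with Foxa2 null pool 2 lowest, and its average was called lower without Foxa2 null pool 1 (-0.52, adjusted p = 0.0495 by limma). Foxa2 null pool 1 also carried the most signal of visceral endoderm genes. The summed signal of 18 such genes on MOE430v2 was 80023 and 88986 in wild-type pools, 111016 in Foxa2 null pool 1 and 88181 in pool 2, and 17 genes on U74Av2 gave 9501, 9135, 13818 and 9227. Of these genes 15 of 18 tested on MOE430v2 and 13 of 16 on U74Av2 had a log2 ratio above 0. Of all genes tested, 6827 of 14208 and 3125 of 6424 did. On either platform 0 visceral endoderm genes passed limma's threshold. None was listed at 0, and their part in the Rian and Meg3 values was not tested.

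**Figure D4:**
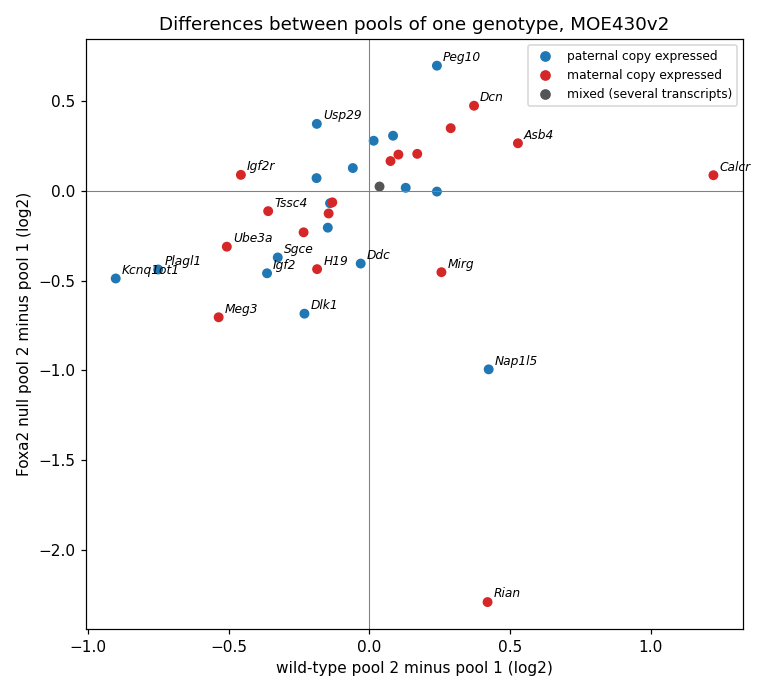
Log2 difference between pool 2 and pool 1 in wild-type (horizontal axis) and in Foxa2 null embryos (vertical axis) for the 35 members tested on MOE430v2, coloured by the expressed parental copy. Rian lies at -2.29 on the vertical axis, and H19, Igf2, Meg3, Dlk1 and Plagl1 lie in the lower left quadrant, lower in pool 2 of both genotypes.

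The spread between pools of the same genotype was set beside that of genes in general. The median absolute log2 difference between the wild-type pools was 0.31 over the members tested on U74Av2, against 0.22 over all genes, and 0.34 against 0.23 between the null pools. On MOE430v2 it was 0.23 against 0.22 in wild-type and 0.28 against 0.21 in null pools. Pool 1 was above pool 2 in both genotypes at 15 of 33 member probe sets on U74Av2 (45.5%, against 24.8% of all) and at 37 of 86 on MOE430v2 (43%, against 27.2%). Of these 37, 9 belonged to Meg3, Rian and Mirg, so that the counts are of probe sets and not of separate genes. The embryos ranged from mid-streak to head-fold stage, and the mix of stages in each pool was not compared here. On MOE430v2 the growth factor gene Igf2 lay 0.36 lower in wild-type pool 2 than in pool 1 and 0.46 lower in Foxa2 null pool 2, and H19 lay 0.19 and 0.44 lower. Plagl1, a zinc finger transcription factor gene, lay 0.75 and 0.44 lower in the same pools, and Meg3 0.54 and 0.70. These differences were as large as, or larger than, the difference between the genotypes for Igf2 and Meg3, and were not tested.

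The remaining members had overlapping pools on a platform or more and missed limma's threshold. Peg3, a paternally expressed zinc finger gene, had log2 ratios of -0.03 on U74Av2 and 0.16 on MOE430v2, and its neighbour Usp29 had 0.33 on MOE430v2. At other Peg3 probe sets both null pools lay below both wild-type pools on U74Av2 (-0.26) and on MOE430v2 (-0.22). At a further U74Av2 probe set they lay above (0.37), and at a further MOE430v2 one they overlapped (0.07). Ube3a, a ubiquitin ligase imprinted in neurons, had 0.28 and 0.39. Nnat, a small membrane protein gene, had -0.08 and -0.37 (SEs 0.24 and 0.12), and Plagl1 had -0.24 and 0.05. In the Peg10 cluster Sgce had 0.10 and -0.12, Asb4 had 0.03 on MOE430v2 and Calcr had 0.57 there, with a SE of 0.59. The paternally expressed Mkrn3 and Peg12 lay below the filter on each platform that holds them. Where several probe sets of a member were tested, they disagreed in sign for 3 of 5 members on U74Av2 and for 12 of 20 on MOE430v2.

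Genes outside the list were taken from a pair of further lists. Of genes that maintain imprints, 12 were tested on U74Av2 and 22 on MOE430v2, with median log2 ratios of 0.02 on each, and 0 passed limma's threshold. The lowest MOE430v2 p in this list was that of Ctcf, an insulator protein (log2 ratio 0.26, adjusted p = 0.389, the single gene with an unadjusted p under 0.05). Dnmt1, the maintenance DNA methyltransferase, had 0.07 on MOE430v2, Trim28 had 0.02 and Zfp57 -0.20, with adjusted p of 0.81 to 0.943.

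Of other imprinted genes, 14 were tested on U74Av2 and 23 on MOE430v2 (medians 0.28 and 0.14), and 1, H13, passed on MOE430v2 as lower and 0 as higher, where 0.282% and 0.176% of all genes tested did. At an unadjusted p under 0.05 there were 2 lower and 5 higher there, against 7.02% and 6.26% of all genes. H13 encodes signal peptide peptidase and is transcribed in full length mainly from the maternal copy, and Mcts2 is a paternally expressed retrogene inside an intron of it. H13 had log2 signals of 10.88 and 10.95 in wild-type and 9.95 and 9.83 in Foxa2 null pools on MOE430v2 (log2 ratio -1.03, SE 0.14, adjusted p = 0.0186). On U74Av2 they were 8.26 and 8.37 against 7.83 and 7.36 (log2 ratio -0.73, adjusted p = 0.227), and the average stood at 54.5% of wild-type (adjusted p = 0.0176 by limma with Benjamini-Hochberg). Both null pools lay below wild-type on each platform. Of the 6 tested H13 probe sets on MOE430v2, however, 3 were below 0 and 3 above, the weaker ones ranging from -1.75 to 0.67. Mcts2 had 10.06 and 10.49 in wild-type and 10.87 and 10.80 in null pools, above wild-type without overlap (log2 ratio 0.56, SE 0.16, adjusted p = 0.22). Slc38a4, a paternally expressed amino acid transporter gene, had 10.99 and 10.78 in wild-type and 11.58 in both null pools (log2 ratio 0.70, SE 0.12, adjusted p = 0.0553), and 0.53 on U74Av2.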

How the data were processed

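RNA of 4 embryo pools was hybridized to 8 Affymetrix arrays. The files hold 1 deposited intensity for every probe set, the linear MAS5 signal, which the authors had scaled to 1 target per array (median signal 48.1 to 52.8 on U74Av2 and 155 to 165 on MOE430v2). No version of MAS5 is given in the sources used here. The study's methods describe present and change calls and a test on single probes, which need values not used here.

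In R 4.3.3, with data.table (version 1.17.8), log2 of the signals was used as scaled on U74Av2 (4 values of 0 were set to 0.1) and after cyclic loess, which the methods name, on MOE430v2. Control probe sets and the 30% with the lowest mean log2 signal were left out, leaving 8695 and 31526. Limma 3.58.1 (lmFit, eBayes with an intensity trend, two-sided) compared 2 Foxa2 null with 2 wild-type pools, with Benjamini-Hochberg adjustment and a threshold of 0.05. With so few pools the smallest two-sided exact permutation p is 0.333. The pools are separate collections of embryos, and their number limits the precision of each value. For 5947 genes on both platforms, log2 values of an extract were averaged. The probe set with the highest mean stood for a gene, and members whose pools did not overlap in the same direction on each platform, or which were called, are given pool by pool. Probe sets naming a gene and others inside it were given to the host gene (1 member probe set on U74Av2 and 7 on MOE430v2), a rule added after seeing the files. Filters, offset, scaling, trend, replicate block, choice of probe sets and left-out pools were varied. Limma was also run on simulated data drawn from its own fitted variances, so that this run cannot test its assumptions about these pools. Promoters and microRNAs are RefSeq's (GRCm38.p6). The members and lists were chosen with earlier results of these data known.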

Additional observations from a re-analysis of the deposited data

How the results depend on the processing

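Mest was lower in the Foxa2 null pools under every alternative tried, with log2 ratios from -2.66 to -2.34 on U74Av2, -2.43 to -2.23 on MOE430v2 and -2.53 to -2.30 in the average, and missed the threshold only on single platforms without the intensity trend. Without that trend 0 member probe sets were called lower on U74Av2 and 0 on MOE430v2. The MOE430v2 count of lower member probe sets fell from 2 to 1 with no filter on low signals and with median centring, and the probe set lost was that of Ndn (adjusted p = 0.0803 and 0.0559 by limma). With each pool left out in turn that count was 1 or 2, the count of higher ones 0 to 2, and the averaged counts 1 to 3 lower and 0 to 2 higher. With 1 pool left in a genotype, that pool is assumed to vary like the others. With the lowest 50% of probe sets left out, 2 members were lower in the average.

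The shared pool numbers do not establish a pairing, since the correlation of same-numbered pools' deviations was 0.111 on U74Av2 and 0.085 on MOE430v2 with only 2 pairs. With the pool number as a replicate block, 2 of 33 member probe sets were lower and 1 higher on U74Av2, where 1.48% and 1.87% of all probe sets were under the same block, 6 and 6 of 86 on MOE430v2 (2.53% and 2.68% of all), and 6 and 3 of 24 members in the average (4.09% and 4.44% of all genes).

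With a pool left out the maternal median ranged from -0.26 to -0.17 on U74Av2 and from -0.19 to -0.11 on MOE430v2, and the paternal median from -0.083 to 0.316 and -0.11 to 0.20. The maternal MOE430v2 median was -0.22 with no filter. Without members marked as imprinted in some tissues only, the maternal medians were -0.35 and -0.29 and the paternal MOE430v2 median 0.16. Small ratios changed sign, and the cause was not tested. Averaged over all probe sets that name a gene alone, Igf2 became -0.32, Peg3 -0.37 and Usp29 -0.096 on MOE430v2, and Igf2 -0.098 and Peg3 0.027 on U74Av2. Over the tested ones alone, a setting added after seeing the data, Gnas became 0.26 (-0.22 over all), Igf2 -0.32 and Peg3 0 on MOE430v2, and Peg3 0.027 on U74Av2. With median centring on U74Av2, Igf2r became 0.031 and Peg3 0.008. With a pool left out, Dlk1 ranged from -0.52 to 0.26, Igf2r from -0.412 to 0.016, Meg3 from -0.049 to 0.76 and Peg3 from -0.011 to 0.13 in the average, and Dlk1 from -0.635 to 0.049 and Meg3 from -0.019 to 0.69 on MOE430v2, and Dlk1 from -0.40 to 0.48, Igf2 from -0.074 to 0.39, Igf2r from -0.21 to 0.19, Meg3 from -0.079 to 0.83, Nnat from -0.39 to 0.22 and Peg3 from -0.14 to 0.074 on U74Av2. In all, 28 values of single genes reversed, 25 became stronger and 8 weaker, and 662 did neither.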
